A study of Mus musculus with 8 samples.

Results

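The regulators of mitochondrial biogenesis described here are 10 genes chosen by symbol for their known roles: Ppargc1b, Ppargc1a, Esrra, Nrf1, Gabpa, Tfam, Tfb1m, Tfb2m, Polrmt and Myc. For 9 of the 10 the array annotation used here names a transcript cluster, 1 cluster each, and Esrra is not analysed here. Of these 9, 8 were measured, meaning that the highest of their 8 log2 signals reached 4.86, the median of the whole table. Ppargc1a did not reach it. The series holds 19505 named genes, of which 10871 were measured by that rule.

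Marrow cells of C57BL6/J mice were cultured, and 500 ng of total RNA from each culture was hybridised to an Affymetrix array. There were 4 cultures. PSS1-LMS cells received M-CSF (50 ng/ml) together with RANKL (100 ng/ml), followed a day later by a retrovirus for mutant PSS1. PSS1-WT cells received the same factors and a retrovirus for wild-type PSS1. M-CSF+RANKL cells received both factors, and M-CSF cells received M-CSF without RANKL. Each culture was sampled on days 3 and 6 after treatment, with 1 array for each of the 8 groups. M-CSF drives marrow precursors towards macrophages, RANKL turns them into bone-resorbing osteoclasts, and PSS1 is phosphatidylserine synthase 1, encoded by Ptdss1. Neither the mutation nor any empty vector in the cultures without PSS1 is described in the labels, nor is the number of animals behind a culture.

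Mitochondria hold their own small genome, which must be copied and transcribed by proteins that the nucleus encodes. PGC-1 alpha (Ppargc1a) and PGC-1 beta (Ppargc1b) are coactivators that switch on nuclear genes for mitochondrial proteins through factors that bind DNA, among them ERR alpha (Esrra), NRF1 and GABPA. Tfam, Tfb2m and Polrmt then act inside the organelle to package and transcribe its DNA. Osteoclasts are rich in mitochondria, and PGC-1 beta is the coactivator known for their mitochondrial biogenesis in mice.

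Markers and Ptdss1 were read first, as a check of the labels. All 10 osteoclast markers were higher with RANKL. The log2 of their summed signals lay between 21.57 and 21.75 on the 6 arrays with RANKL, against 8.89 and 12.84 on the M-CSF arrays. Of 8 macrophage markers with a cluster, 7 were lower with RANKL and 1, Csf1r, did not pass. The log2 of their summed signals was 16.40 to 16.76 on the arrays with RANKL, against 18.14 and 19.89 on the M-CSF arrays. The B cell, erythroid and stromal markers with a cluster were all within background on every array. Of the T and NK cell markers, Cd4 was above background on 6 arrays. Of the megakaryocyte, mast cell and basophil markers, Itga2b was above background on 7 arrays and Pf4 on all 8. Pf4 read 15.03 and 14.81 on the M-CSF arrays, with a RANKL difference of -8.17 ± 0.39. Ptdss1 had log2 signals of 17.50 to 18.91 in the PSS1 cultures, against 9.56 to 10.36 in the other cultures. It does not tell the PSS1-LMS arrays from the PSS1-WT arrays. The brightest of the array's 23 background probe sets, designed to match no transcript, read 5.54 to 7.13 depending on the array, and a signal at or under the brightest of its own array is called within background. Since these are bulk samples, a lower signal from fewer cells of a type and one from less RNA per cell cannot be told apart.

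Among the 8 measured regulators, the largest difference in any of the comparisons was that of the coactivator Ppargc1b with RANKL. Of the 8 measured regulators, Ppargc1b and Tfb2m rose in M-CSF+RANKL cells over M-CSF cells and none fell, averaged over both days (limma, adjusted p under 0.05 over all 10871 genes). Of all measured genes 26.4% passed this comparison, 14.1% higher and 12.4% lower, so 2 of 8 is close to the background. The median difference of the 8 was 0.75 on the log2 scale, against 0.03 over all measured genes. The error of this fit is how far the culture differences changed between the 2 days, not spread between replicate cultures.

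Ppargc1b, the PGC-1 beta gene, had log2 signals of 11.91 and 11.54 in PSS1-LMS cells on days 3 and 6, 12.24 and 11.31 in PSS1-WT cells, 12.24 and 11.58 in M-CSF+RANKL cells, and 5.77 and 6.00 in M-CSF cells. The 6 arrays with RANKL thus lay far above both M-CSF arrays, which were within background, and on either day the 3 cultures with RANKL lay close together. The difference between M-CSF+RANKL and M-CSF cells was 6.47 on day 3 and 5.59 on day 6, on average 6.03 ± 0.35 (SE; limma adjusted p = 2.68e-05). Against the background of the M-CSF arrays this is at least 36.7-fold higher. The related coactivator Ppargc1a, which is best known from brown fat, muscle and liver, gave 2.73 to 4.03 across the 8 arrays and was within background on all of them. A change in Ppargc1a was therefore not detectable on these arrays.

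Tfb2m encodes the factor with which the mitochondrial RNA polymerase starts transcription. Its log2 signals were 11.56 and 11.59 in PSS1-LMS cells on days 3 and 6, 11.46 and 11.60 in PSS1-WT cells, 11.65 and 11.08 in M-CSF+RANKL cells, and 10.29 and 10.10 in M-CSF cells. Every array with RANKL lay above both M-CSF arrays, and all 8 were above background. M-CSF+RANKL exceeded M-CSF cells by 1.17 ± 0.31, or 2.25-fold (limma adjusted p = 0.0258). This call is near the threshold: leaving out any array with RANKL, of PSS1-LMS, PSS1-WT or M-CSF+RANKL cells, ended it, with adjusted p from 0.0501 to 0.238 and differences from 0.89 to 1.45. Without 1 of the M-CSF arrays, M-CSF cells rest on a single array that adds nothing to the error, so no call is given.

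**Figure D1:**
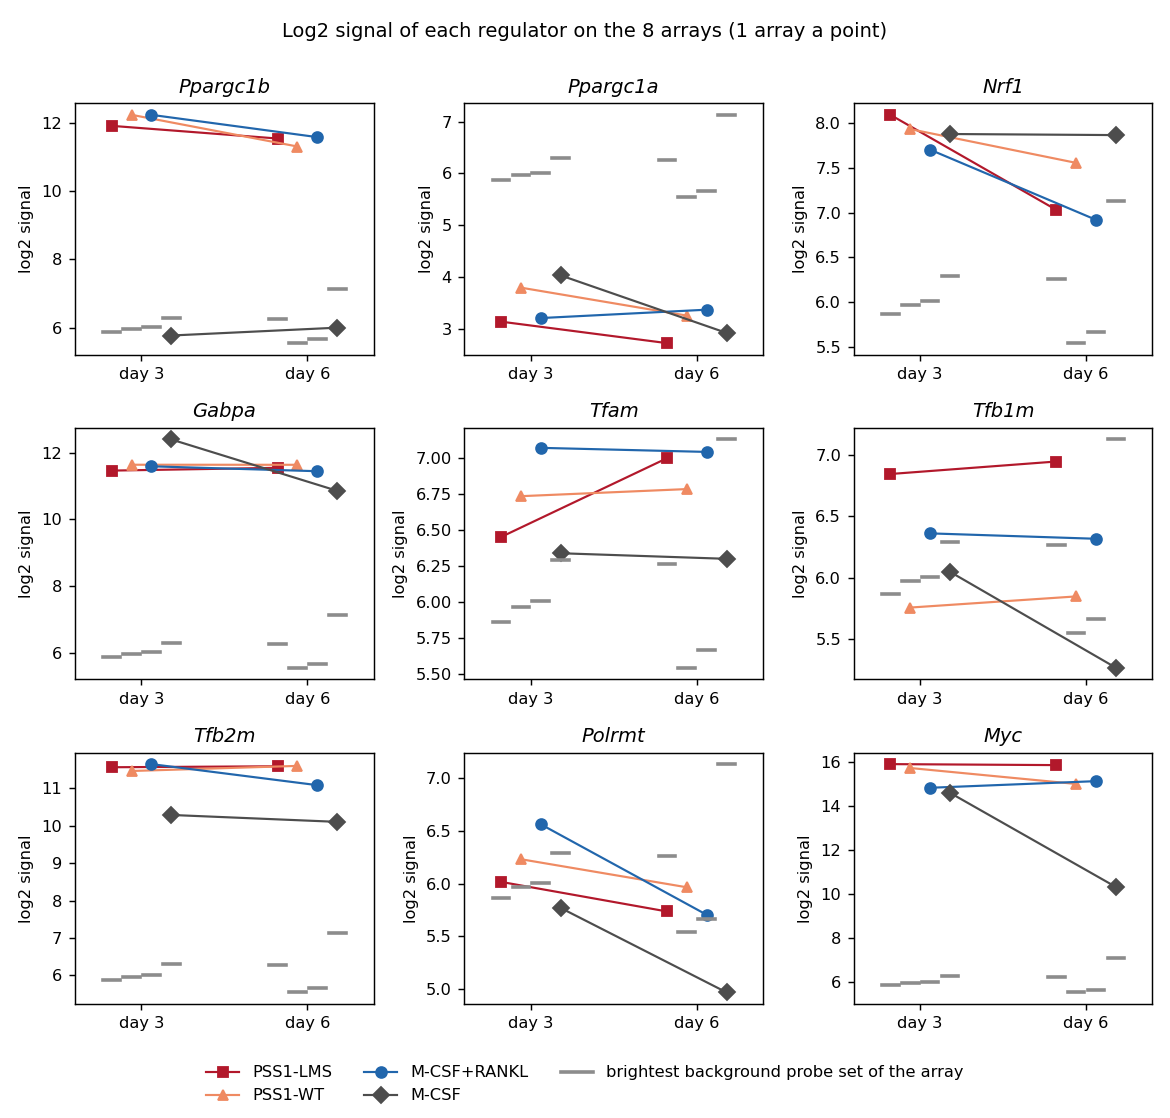
Log2 signal of the 9 regulators with a transcript cluster, each panel on its own axis, on days 3 and 6 in the 4 cultures; each point is 1 array and each grey bar the brightest background probe set of that array. Ppargc1b lies between 11.31 and 12.24 on the 6 arrays with RANKL and within background on the M-CSF arrays, Myc drops on the M-CSF array of day 6 alone, and Ppargc1a is within background throughout.

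The other 3 regulators whose proteins act on the organelle's DNA or RNA stood higher with RANKL on each day, by less than 1.1 on the log2 scale, and did not pass. Tfam, which packages mitochondrial DNA and opens its promoters, differed by 0.73 on day 3 and 0.74 on day 6 (average 0.74 ± 0.30; limma adjusted p = 0.116). Its signals of 6.30 to 7.07 over the 8 arrays were low, and that of the M-CSF array of day 6 was within background. Polrmt, the mitochondrial RNA polymerase, differed by 0.79 and 0.73 (average 0.76 ± 0.31; adjusted p = 0.114), and 5 of its 8 signals were above background. Tfb1m, which methylates the small ribosomal RNA of mitochondria, differed by 0.31 and 1.05 (average 0.68 ± 0.33; adjusted p = 0.177), again with 5 of 8 signals above background. For Polrmt and Tfb1m both M-CSF signals were within background. On day 6 their M-CSF+RANKL signals, 5.70 and 6.32, also lay under 7.13, the brightest background of the M-CSF array. These differences therefore give no fold over background, and the size of any change cannot be read from them. The 95% intervals were 0.04 to 1.43 for Tfam, 0.05 to 1.48 for Polrmt and -0.09 to 1.45 for Tfb1m.

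Among the factors that bind DNA, none passed on the average of both days. Nrf1, nuclear respiratory factor 1, was lower with RANKL on both days, by -0.18 and -0.95 (average -0.56 ± 0.34; limma adjusted p = 0.278), with signals from 6.92 to 8.09 that were all above background. Gabpa, the subunit of nuclear respiratory factor 2 that contacts DNA, was lower on day 3 (-0.81) and higher on day 6 (0.59), with an average of -0.11 ± 0.44 (adjusted p = 0.882). Myc, a growth-promoting factor that also binds many genes for mitochondrial proteins, differed by 0.23 on day 3 and 4.81 on day 6. Its average of 2.52 ± 0.97 (adjusted p = 0.0979) did not pass in this fit, whose error is the change between the days. It passed with all cultures with RANKL pooled, PSS1 cultures included (2.95, adjusted p = 0.00756). It also passed with a RANKL by day term, added after the data were seen (2.52, adjusted p = 1.46e-06). That term fits the 2 M-CSF arrays exactly, so this p holds no variation of M-CSF cells.

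These calls depend on which M-CSF array sets the baseline. Without the M-CSF array of day 3, so that M-CSF rests on day 6, 7 of the 8 regulators passed: Ppargc1b, Tfb2m, Myc (4.58), Tfb1m (1.10), Polrmt (0.93) and Tfam (0.85) higher, and Nrf1 lower (-0.92). Without the M-CSF array of day 6, 3 passed: Ppargc1b and Tfb2m higher and Gabpa lower (-0.87). Ppargc1b passed in each of the 17 alternatives run, with differences from 4.78 to 6.47.

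**Figure D2:**
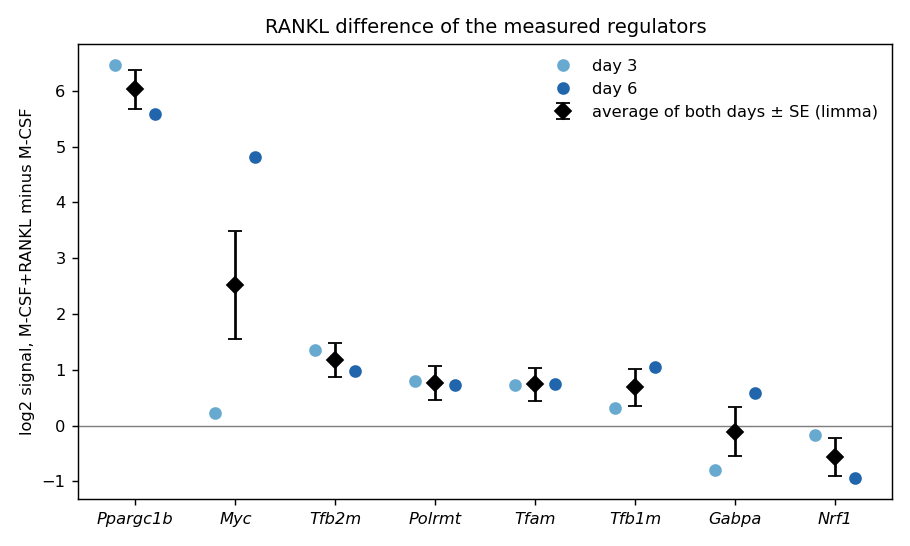
Log2 signal of M-CSF+RANKL minus M-CSF cells for the 8 measured regulators, on each day (circles, 1 array a side) and as the average of both days with its standard error from limma (diamonds). Ppargc1b is set apart at 6.03, Tfb2m, Polrmt, Tfam and Tfb1m lie between 0.68 and 1.17, and Myc differs by 0.23 on day 3 and 4.81 on day 6.

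Promoter sequences of the regulators are shown because Tfam and Tfb2m are textbook targets of NRF1 and GABPA, whose own transcripts did not pass with RANKL while Tfb2m rose. RefSeq (build GRCm38.p6) gave 8 promoters for 7 of the 9 genes, all but Ppargc1b and Myc, each from 250 bases before to 50 bases after a transcript start. They were searched on both strands for GCATGCG, the core of the NRF1 site, for CCGGAAG, the ETS site that GABPA binds, for CACGTG, the E-box that MYC binds, and for TCAAGGTCA, the ERR site. The matches below are given 5′ to 3′ on the gene's strand with the match in capitals.
Tfb2m, NRF1 core, chr1:179546246-179546274, minus strand: ctaggtcgttcGCATGCGccattcgtaat
Polrmt, NRF1 core, chr10:79746696-79746724, minus strand: gagtatttctgCGCATGCtctcttgccgc
Gabpa, NRF1 core, chr16:84835106-84835134, plus strand: ctgcactgtacGCATGCGtattctggcct
Tfam, ETS site, chr10:71238074-71238102, minus strand: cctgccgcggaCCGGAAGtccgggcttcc
Polrmt, ETS site, chr10:79746607-79746635, minus strand: ccctaagagcgCTTCCGGcagtcgcagaa
Gabpa, ETS site, chr16:84835020-84835048, plus strand: gagggtaagtgCTTCCGGgtccctcagct

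The NRF1 core stands in 3.58% of the 32851 mouse promoters of the table and the ETS site in 8.86%. In Tfb2m and Gabpa the NRF1 core overlaps a match to the same letters on the other strand. No E-box, found in 7.15% of all promoters, and no ERR site, found in 0.42%, lay within the windows of these 7 genes; the promoters of Ppargc1b and Myc were not searched. The letters describe the windows and say nothing of binding in these cells.

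Over all 4 cultures no regulator passed the test of day 6 against day 3 (limma, smallest adjusted p = 0.585; 1 of 8 had an unadjusted p under 0.05), and 0.285% of all measured genes did, 0.101% higher and 0.184% lower. Of 8 neutrophil markers 7 were lower on day 6 in this comparison. The log2 of the summed signals of the 8 was 7.42 to 10.21 on the day 6 arrays, against 14.11 to 14.68 on the day 3 arrays. The part of these markers in the day values was not tested. The difference between cultures was therefore tested directly, by the change from day 3 to day 6 averaged over the 3 cultures with RANKL minus that in M-CSF cells. This term was added after the data were seen. It rests on a single pair of M-CSF arrays, which is assumed to vary like the pairs with RANKL. Myc and Gabpa passed, both higher, of 8 regulators, against 22.3% of all measured genes in either direction, 9.49% higher and 12.8% lower, so this count too is close to the background. The values of these 2 genes follow.

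Myc had log2 signals of 15.92 and 15.87 in PSS1-LMS cells on days 3 and 6, 15.74 and 15.02 in PSS1-WT cells, 14.84 and 15.14 in M-CSF+RANKL cells, and 14.61 and 10.33 in M-CSF cells. On day 3 the M-CSF culture lay just under M-CSF+RANKL, and on day 6 it was far below the rest. From day 3 to day 6 the signal changed by -0.05 in PSS1-LMS cells, -0.72 in PSS1-WT cells, 0.30 in M-CSF+RANKL cells and -4.28 in M-CSF cells. The mean change with RANKL exceeded that with M-CSF alone by 4.12 ± 0.45 (limma adjusted p = 2.33e-05), the 11th largest such excess among the 10871 genes.

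Gabpa had signals of 11.46 and 11.55 in PSS1-LMS cells, 11.64 and 11.64 in PSS1-WT cells, 11.59 and 11.44 in M-CSF+RANKL cells, and 12.40 and 10.86 in M-CSF cells. It was nearly level on the 6 arrays with RANKL, with the M-CSF array of day 3 above them and that of day 6 below. The mean change with RANKL exceeded that in M-CSF cells by 1.52 ± 0.40 (adjusted p = 0.013). The other 6 regulators did not pass. Tfb1m (0.83, adjusted p = 0.148) and Ppargc1b (-0.88, adjusted p = 0.141) were the nearest, and Ppargc1b was lower on day 6 than on day 3 in each of the 3 cultures with RANKL, by -0.37 in PSS1-LMS, -0.93 in PSS1-WT and -0.65 in M-CSF+RANKL cells. Nrf1 likewise was lower on day 6 in these cultures, by -1.06, -0.38 and -0.78, while in M-CSF cells its change was -0.01.

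**Figure D3:**
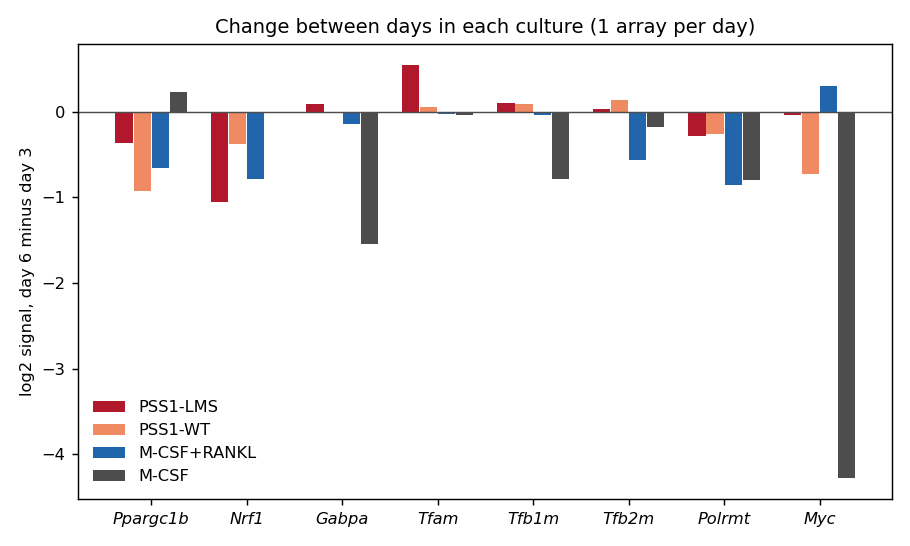
Log2 signal of day 6 minus day 3 for the 8 measured regulators in each culture, with 1 array per day and so no error bar. Myc (-4.28) and Gabpa (-1.54) have their largest change in M-CSF cells, and Ppargc1b and Nrf1 are lower on day 6 in all 3 cultures with RANKL.

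Neither wild-type nor mutant PSS1 changed a regulator in cells with RANKL by the test. Against M-CSF+RANKL cells, 0 of 8 passed in PSS1-LMS cells (0.175% of all measured genes did, 0.156% higher and 0.0184% lower; 2 regulators had an unadjusted p under 0.05) and 0 of 8 in PSS1-WT cells (0.0092%; 1 under 0.05). Between PSS1-LMS and PSS1-WT cells 0 of 8 passed (0% of all genes; 1 under 0.05). These counts are from limma on the 6 arrays with RANKL, and both PSS1 comparisons share the M-CSF+RANKL arrays. For Ppargc1b the 95% interval of the difference was -0.72 to 0.36 in PSS1-LMS against M-CSF+RANKL cells, -0.68 to 0.40 in PSS1-WT against M-CSF+RANKL cells and -0.58 to 0.49 in PSS1-LMS against PSS1-WT cells. A change of more than 0.72 in either direction thus lay outside all 3 intervals, while the RANKL difference of this gene was 6.03.

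The regulator that differed most between the PSS1 cultures was Tfb1m. Its log2 signals were 6.85 and 6.95 in PSS1-LMS cells on days 3 and 6, 5.76 and 5.85 in PSS1-WT cells, 6.36 and 6.32 in M-CSF+RANKL cells, and 6.05 and 5.26 in M-CSF cells. On both days the order was PSS1-LMS, then M-CSF+RANKL, then PSS1-WT. PSS1-LMS exceeded PSS1-WT cells by 1.09 on day 3 and 1.10 on day 6, on average 1.10 ± 0.24, with a 95% interval of 0.58 to 1.62 and an unadjusted p of 0.000403, place 17 among all genes. Adjusted over all genes it did not pass (limma adjusted p = 0.252). Without either M-CSF+RANKL array it did (1.10, adjusted p = 0.0299). The PSS1-WT signal of day 3 was within background, and all 8 signals lay under 7.13, the brightest background of any array: with signals floored there the difference was 0.

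Myc was higher in PSS1-LMS than in M-CSF+RANKL cells on each day, by 1.08 and 0.73, on average 0.90 ± 0.28 (limma adjusted p = 0.403; 95% interval 0.31 to 1.49). In PSS1-WT cells it differed from M-CSF+RANKL cells by 0.90 on day 3 and -0.13 on day 6 (average 0.39 ± 0.28; adjusted p = 0.806). The remaining regulators had average differences between -0.33 and 0.43 in the 2 comparisons with M-CSF+RANKL cells, with adjusted p from 0.751 upwards.

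**Figure D4:**
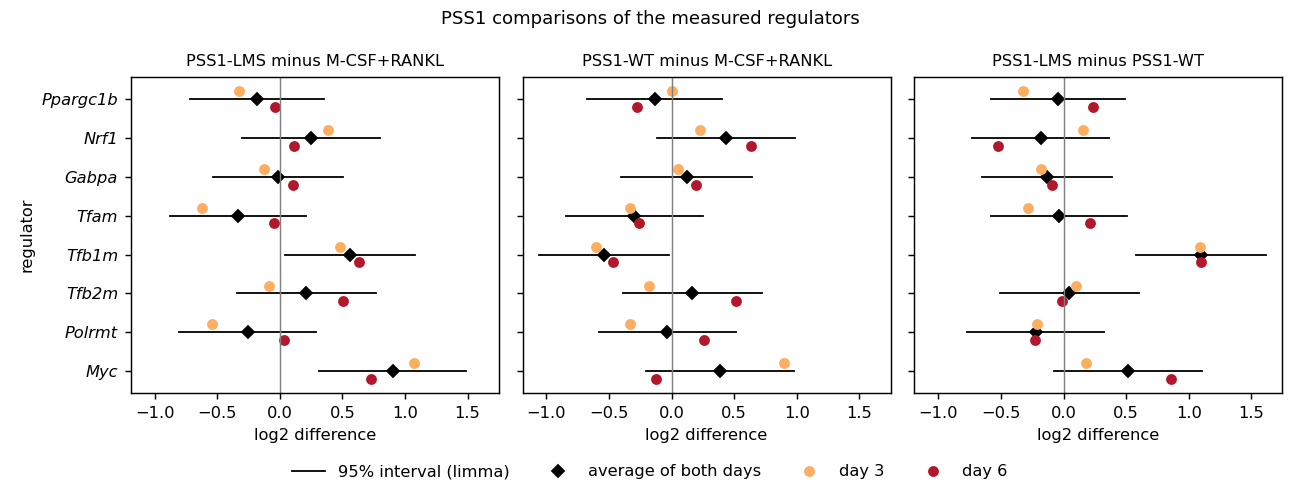
Log2 difference of the 8 measured regulators in PSS1-LMS against M-CSF+RANKL cells (left), PSS1-WT against M-CSF+RANKL cells (middle) and PSS1-LMS against PSS1-WT cells (right): circles for each day, diamonds for the average and lines for its 95% interval from limma. None passed after adjustment; Tfb1m stands at 1.10 in PSS1-LMS against PSS1-WT cells on average.

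Ranked by the mean of both days, Ppargc1b, Tfam, Tfb2m, Polrmt and Myc were lowest in M-CSF cells, with gaps to the next culture of 5.85, 0.41, 1.17, 0.51 and 2.52. Each of these gaps exceeded the residual SD of the gene in the fit of all 8 arrays. That SD equals the SE of a difference between 2 culture means, so exceeding it is not a test call. Of these 5 genes only Ppargc1b and Tfb2m passed with RANKL. Among the 3 cultures with RANKL, no neighbours in these 5 genes differed by more than that SD. For Nrf1 and Gabpa no pair of neighbours did. For Tfb1m the PSS1-LMS culture exceeded M-CSF+RANKL by 0.56, and M-CSF+RANKL exceeded PSS1-WT by 0.54, against an SD of 0.33, while PSS1-WT and M-CSF cells lay within it. The SD of all 8 arrays also holds the change of M-CSF cells between days. For Myc it was 0.97, against 0.28 in the fit of the 6 arrays with RANKL. The Myc gaps among the cultures with RANKL, 0.52 and 0.39, exceeded this smaller SD. In Tfam, M-CSF+RANKL exceeded PSS1-WT cells by 0.30, against 0.26 in that fit. In Ppargc1b, Tfb2m and Polrmt the gaps stayed within it. No regulator passed a PSS1 comparison in that fit.

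Lists of genes that these regulators are known to serve were called at different rates with RANKL. Of 24 measured ERR and PGC-1 target genes of respiration, 24 rose and none fell in M-CSF+RANKL over M-CSF cells, with a median of 2.51 (limma, against 14.1% of all genes higher and a median of 0.03). The citric acid cycle genes Mdh2 (4.42 ± 0.34) and Idh3a (4.34 ± 0.66) and the complex III subunit gene Uqcrc2 (3.65 ± 0.35) rose most. Of 25 genes of mitochondrial import and chaperones, 17 rose and none fell (median 1.74), led by the chaperonin gene Hspd1 (3.58 ± 0.52), the import channel gene Tomm40 (3.16 ± 0.29) and Timm17a (3.00 ± 0.59). Of 21 genes of mitochondrial transcription and RNA processing, 11 rose and none fell (median 1.16). Hsd17b10, a subunit of mitochondrial RNase P, rose by 3.72 ± 0.30 and Mrpl12, which also binds the mitochondrial polymerase, by 3.07 ± 0.32, with the M-CSF signal of day 6 within background. Fastkd1, of the FASTK family of mitochondrial RNA-binding proteins, was at least 2.91-fold higher, since both M-CSF signals were within background. The same holds for Tefm, the elongation factor that works with Polrmt, named after its values were seen, which was at least 1.98-fold higher.

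Of 14 measured genes of mitochondrial DNA replication and nucleotide supply, 1 rose and none fell (median 0.20), against 14.1% of all genes higher and 12.4% lower. It was Rrm2b, a ribonucleotide reductase subunit that serves nucleotide supply (1.09 ± 0.31, with the M-CSF signal of day 6 within background). Of 14 genes of fusion, fission and mitophagy, 6 rose and none fell (median 0.65), with the fusion genes Mfn2 (3.11 ± 0.49) and Opa1 (1.53 ± 0.28) and the fission receptor gene Mff (1.42 ± 0.33) highest.

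Of 23 measured partners and upstream regulators of the coactivators, 2 rose and 4 fell (median -0.10), which is close to the 26.4% called over all genes. Prkag2, a regulatory subunit of the energy sensor AMPK, rose by 3.70 ± 0.38, and Mef2d, a transcription factor of the MEF2 family, by 1.39 ± 0.31. Mef2c of the same family (-6.71 ± 0.57) and Prkaa1, a catalytic subunit of AMPK (-1.25 ± 0.29), fell. The M-CSF+RANKL signals of Mef2c, 6.03 and 5.69 on days 3 and 6, lay just above the brightest background of their arrays, 6.01 and 5.66. The nuclear receptor genes Rxra and Pparg also fell. Rxra was within background on both M-CSF+RANKL arrays and at least 4.38-fold lower there, and Pparg was within background on that of day 3 and at least 4.01-fold lower. In the MYC network, 2 of 11 passed higher and none lower (median 0.15), again near the share over all genes. They were Mycbp (1.63 ± 0.28, with the M-CSF signal of day 6 within background) and Mycl, which was within background on all 8 arrays and so gives no fold. The osteoclast and macrophage markers moved in the same comparison, as given above, and their part in these counts was not tested.

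MYC targets of ribosome biogenesis and growth followed the days rather than the average. Averaged over both days 4 of 23 rose with RANKL and none fell, against 14.1% of all genes higher and 12.4% lower. The share that rose is thus near the background. The 4 were Dkc1 (2.32 ± 0.71, with the M-CSF signal of day 6 within background), Nop2 (2.06 ± 0.59), Rrs1 and Npm1 (1.07 ± 0.28). The median of the 23 was 0.46 on day 3 and 1.76 on day 6. In the comparison of day changes, 15 of 23 were higher in cells with RANKL than in M-CSF cells and none lower (median 1.53, against -0.03 and 9.49% higher over all genes). Of these 15, Ccnd2 was within background on all 8 arrays. Examples chosen after their values were seen are Srm, spermidine synthase (4.84, adjusted p = 2.34e-06), and the nucleolar protein gene Nop58 (4.39, adjusted p = 6.01e-06), which changed by -5.10 and -4.13 from day 3 to day 6 in M-CSF cells. In the same comparison, Mxd4 (-2.95), Mlxip (-2.33) and Mxd1 (-1.59) of the MYC network were lower and none of its 11 genes was higher. Of all genes 12.8% were lower. Mxd1 and Mxd4 are antagonists of MYC. Mxd4 changed by 3.08 in M-CSF cells from day 3 to day 6. Of 24 respiration targets, Cycs, cytochrome c (3.04), Idh3a (2.68) and Atp5b were higher, and the complex II subunit genes Sdha (-2.32) and Sdhb (-1.55) lower. This count is close to the 22.3% of all genes called in either direction, and the median of the 24 was -0.01. Of the import and chaperone genes 8 of 25 were higher and none lower. Macrophage markers also changed in M-CSF cells over these days, such as C1qa by 3.33 and Adgre1 by 2.55 (examples chosen after their values were seen), and their part in this comparison was not tested.

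**Figure D5:**
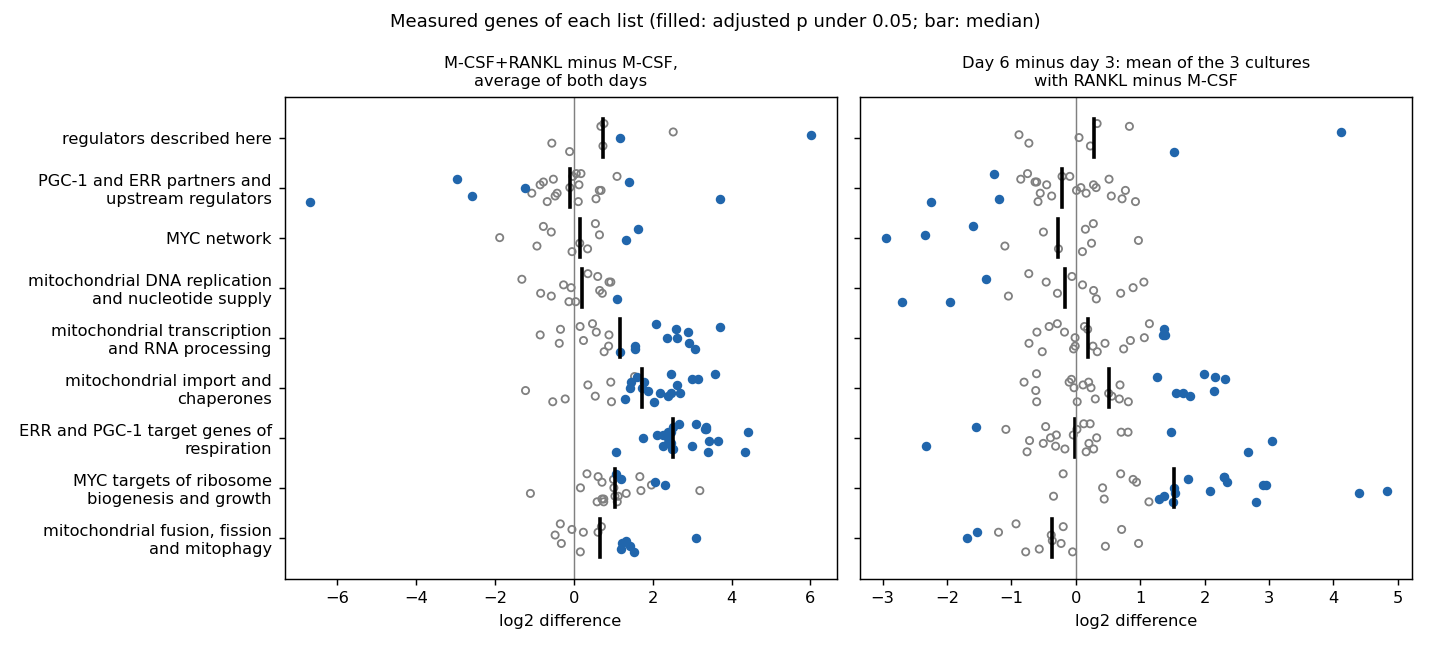
Log2 difference of each measured gene, 1 point a gene, by list: M-CSF+RANKL minus M-CSF cells averaged over both days (left) and the change from day 3 to day 6 in the 3 cultures with RANKL minus that in M-CSF cells (right). Filled points have a limma adjusted p under 0.05 and bars are medians, which on the left reach 2.51 for the respiration targets, against 0.75 for the regulators, and on the right 1.53 for the MYC targets.

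With PSS1, none of the measured genes of these 8 lists passed in any of the 3 comparisons. Nearly no gene did: 0.175% of all genes passed in PSS1-LMS and 0.0092% in PSS1-WT against M-CSF+RANKL cells. Between PSS1-LMS and PSS1-WT cells it was 0%. The respiration targets had medians of -0.22 in PSS1-LMS and -0.24 in PSS1-WT cells against M-CSF+RANKL cells, with medians over all genes of -0.02 and -0.06. The 24 values lay between -0.64 and -0.03 in the PSS1-WT comparison and between -0.54 and 0.08 in the PSS1-LMS comparison. Both comparisons share the M-CSF+RANKL arrays. Between PSS1-LMS and PSS1-WT cells the median of these targets was -0.02.

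The genes whose signals followed Ppargc1b most closely over the 8 arrays were Ocstamp, a gene needed for the fusion of osteoclast precursors (Pearson r = 0.999), Dnajc11, Septin9, Clybl and Hibadh (r from 0.997 to 0.998). Of these, Dnajc11, Clybl and Hibadh encode mitochondrial proteins. The 8 points share the split by RANKL, which sets most of r: 1149 measured genes exceeded 0.9. Over the 6 arrays with RANKL the closest were Atp6v1e2, Zfand1, Emc3, Cyfip2 and Erp44 (r from 0.990 to 0.995), where 280 genes exceeded 0.9. Atp6v1e2 was within background on all 8 arrays. Among the regulators, Tfb2m was closest to Ppargc1b over 8 arrays (r = 0.95) but not over the 6 with RANKL (r = 0.18). For Myc the closest over 8 arrays were Lratd2, Rsl1d1, Psme3, Zfp146 and Nop2 (r from 0.983 to 0.987), all low on the M-CSF array of day 6.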

How the data were processed

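The authors deposited log2 signals for 28846 features on 8 Affymetrix arrays. That they are log2 was inferred from their range, 1.25 to 19.93. The authors' probe summary and normalisation were not given in the sources used here. Array medians lay between 4.80 and 4.93. Per the labels' protocols, 500 ng of total RNA went into each labelling reaction. Of 19572 probe sets with 1 gene symbol, each gene kept the one with the highest mean. The 2615 transcript clusters without a symbol were not used.

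The tested quantity was the culture difference averaged over both days, from lmFit and eBayes of limma 3.58.1 (R 4.3.3), with culture and day as additive terms, across the 10871 measured genes, with Benjamini-Hochberg adjustment at 0.05. The RANKL and day comparisons used all 8 arrays (3 residual degrees of freedom), the PSS1 comparisons the 6 with RANKL (2 residual degrees, so p-values rest mostly on spread pooled over genes). With 1 array per group, p-values cover neither replicate cultures nor animals. Named genes are the regulators, the 3 called members with the largest RANKL difference per list, and any list count of 5 or fewer; likeness names the 5 highest correlations. The regulators and lists were chosen with earlier results of these data known, so the rise of respiration genes is not independent support.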

Additional observations from a re-analysis of the deposited data

Results flagged for a closer look

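Gabpa and Myc passed the comparison of day changes, as did 22.3% of all measured genes. The change from day 3 to day 6, mean of the 3 cultures with RANKL minus M-CSF cells, was 1.52 for Gabpa and 4.12 for Myc. This term was added after the data were seen and rests on a single pair of M-CSF arrays. With signals floored at the brightest background Myc did not pass (limma adjusted p = 0.0859).

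Several regulators had differences of opposite sign on days 3 and 6; each rests on 1 array a side, and none of these changes between days was tested. For M-CSF+RANKL minus M-CSF cells this was Gabpa (-0.81 on day 3 and 0.59 on day 6). For PSS1-LMS minus M-CSF+RANKL cells it was Gabpa (-0.13 and 0.10), Tfb2m (-0.0838 and 0.51) and Polrmt (-0.54 and 0.03). For PSS1-WT minus M-CSF+RANKL cells it was Ppargc1b (0.0012 and -0.27), Tfb2m (-0.18 and 0.52), Polrmt (-0.33 and 0.26) and Myc (0.90 and -0.13). For PSS1-LMS minus PSS1-WT cells it was Ppargc1b (-0.32 and 0.23), Nrf1 (0.16 and -0.52), Tfam (-0.28 and 0.21) and Tfb2m (0.10 and -0.01).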

How the results depend on the processing

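Ppargc1b passed the RANKL comparison under all 17 alternatives and Gabpa the comparison of day changes under all 9. No regulator passed by day in any of 15 alternatives, or with PSS1-WT or PSS1-LMS against M-CSF+RANKL in any of 13. The number of regulators called with RANKL was 2. It was 1 with signals floored at the brightest background and 1 with only the 4 arrays of M-CSF and M-CSF+RANKL. It was 4 with all cultures with RANKL pooled, and 6 with a RANKL by day term (added after the data were seen, its error from the cultures with RANKL alone). Between PSS1-LMS and PSS1-WT it was 0 to 1 with an array left out. In the comparison of day changes it was 2, and 1 with floored signals, where Myc had the same difference and an adjusted p of 0.0859. Flooring leaves 3436 genes with no spread, which enter the pooled variance.

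Counts over all genes moved as follows. RANKL: 2875, against 1136 floored, 5083 with the RANKL by day term and 1198 to 4545 with an array left out. Day: 31, against 20 with the filter at the brightest background, 2 floored, 367 on the 6 arrays with RANKL and 10 to 367 with an array left out. PSS1-WT: 1, against 2 with that filter, 0 floored, 2 with an intensity trend and 3 to 61 with an array left out. PSS1-LMS: 19, against 2 unfiltered, 37 with that filter, 0 floored, 43 with trend, 1 on all 8 arrays and 11 to 83 with an array left out. PSS1-LMS against PSS1-WT: 0, against 8 with that filter, 7 with trend and 0 to 48 with an array left out. Day changes: 2425, against 1074 floored and 2201 to 3111 with an array left out. Where no construction is named, the cause was not tested. No paired analysis was possible because the labels give no replicate numbers; day is already a term of the fit. Tfam, Tfb1m, Polrmt and Ppargc1a lie near or within background, which limits what these arrays show of them.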
